A study of Mus musculus with 8 samples.

Results

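The 33 genes described here encode enzymes of cholesterol and fatty acid synthesis and the proteins that control them. They were taken by gene symbol from a list of names and are 33 of the 22597 genes in the deposited table. The list was drawn up with earlier results of these data known, so the shares of members called below are not independent of those results. By role, 7 act in the early, mevalonate stage of sterol synthesis up to farnesyl diphosphate, 11 act from squalene to cholesterol, and 5 control the pathway (Srebf1, Srebf2, Scap, Insig1 and Insig2). Another 8 make or desaturate fatty acids. The list also holds the sterol carrier Stard4 and the phosphatidate phosphatase Lpin1. All 33 passed the low-count filter and were tested, with 12750 genes tested in all.

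Cells build cholesterol from acetyl-CoA through mevalonate, squalene and lanosterol, and fatty acids from acetyl-CoA through malonyl-CoA. The transcription factors SREBP2 and SREBP1, encoded by Srebf2 and Srebf1, switch on the sterol and the fatty acid genes. When sterols are plentiful, Insig proteins hold SREBP and its escort Scap in the endoplasmic reticulum, and when sterols run short the complex leaves and SREBP is released by cleavage. In the lung, alveolar type 2 cells synthesise the lipids of surfactant, while macrophages take up and recycle lipid from surfactant and dead cells.

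The libraries hold polyadenylated RNA of interstitial macrophages, which live in lung tissue rather than in the air spaces, sorted from mice. Irradiated CD45.1/CD45.2 IMDTR recipients, which the labels also call Cx3cr1-DTR, received bone marrow from congenic donors. After 1 month they were given 50 ng diphtheria toxin, which kills cells that carry its receptor, and the macrophages were sorted 10 days later. All samples are labelled female C57BL/6. WT marrow carried floxed Tgfbr2 alleles (Tgfbr2 fl/fl) without Cre, and Tgfbr2_KO marrow carried the same floxed alleles with Lyz2Cre, so the alleles were shared by both groups and Cre was not. Tgfbr2 is the type II receptor of TGF-β, and Lyz2Cre is active in myeloid cells in general, not only in these macrophages. The labels give an age of 12 to 16 weeks for the samples, while the protocol gives 18 weeks for the recipients, and the sources used here do not explain the difference. There were 4 libraries per group, named WT 1 to 4 and KO 1 to 4. Whether the libraries are from separate mice is not in the labels. The p-values therefore measure the spread between libraries only, and that spread may be technical.

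Library totals ran from 15597300 counts (WT 1) to 37654100 (WT 4), and 3 counts were worth 0.0844 to 0.177 CPM (counts scaled to library size with TMM factors). Tgfbr2 itself was at 548, 474, 546 and 542 CPM across WT 1 to 4 and at 424, 576, 529 and 539 CPM across KO 1 to 4, so the whole-gene level did not separate the genotypes over all 8 libraries. KO 1 was the lowest library, with a log2 difference of -0.27 (SE 0.08) from WT 1 and WT 2. Between KO 2 to 4 and WT 3 and WT 4 the difference was 0.01 (SE 0.06). The sources used here do not say which part Cre removes. Lyz2, which carries Cre in the KO donors, was at 7285 to 13193 CPM in WT and at 3440 to 5611 CPM in KO, with no overlap. WT 1, WT 2 and KO 1, called lung-rich here, stood apart by RNA of other lung cells. The summed level of 14 alveolar type 2 markers was 3815 to 6517 CPM in them and 522 to 609 CPM in the other 5 libraries (WT 3, WT 4 and KO 2 to 4). The summed level of 10 macrophage markers was 7046 to 10927 CPM in the lung-rich libraries and 14864 to 15601 CPM in the others. The sets were known from earlier results of these data and are not groups of the study. Each genotype comparison is therefore given over all 8 libraries, within each set and with the set as a term. In bulk RNA, fewer cells of a type and less RNA per cell cannot be told apart.

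Over all 8 libraries, 5 of the 33 members were lower in every KO library than in every WT library. They were squalene epoxidase (Sqle), lanosterol demethylase (Cyp51), methylsterol monooxygenase (Msmo1), the SREBP retention protein Insig1 and the fatty acid desaturase Fads1. No member was higher in every KO library. These 5 are 15.2% of the members, and of all tested genes 2.71% were lower and 4.19% higher without overlap. None of the 33 passed the edgeR quasi-likelihood test with genotype alone (Benjamini-Hochberg adjusted over all 12750 genes), in which 0.196% of tested genes were called higher and 0.102% lower. Of the 33 differences, 30 lay below 0, 9 members had an unadjusted p under 0.05, and the median log2 fold change was -0.24, beside -0.0083 over all tested genes. Of the 12750 tested genes, 6629 lay below 0 and 1328 had an unadjusted p under 0.05 in that edgeR fit. DESeq2 called the same 5 members without overlap lower and 0 higher, where it called 1.41% of tested genes lower and 2.72% higher.

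**Figure D1:**
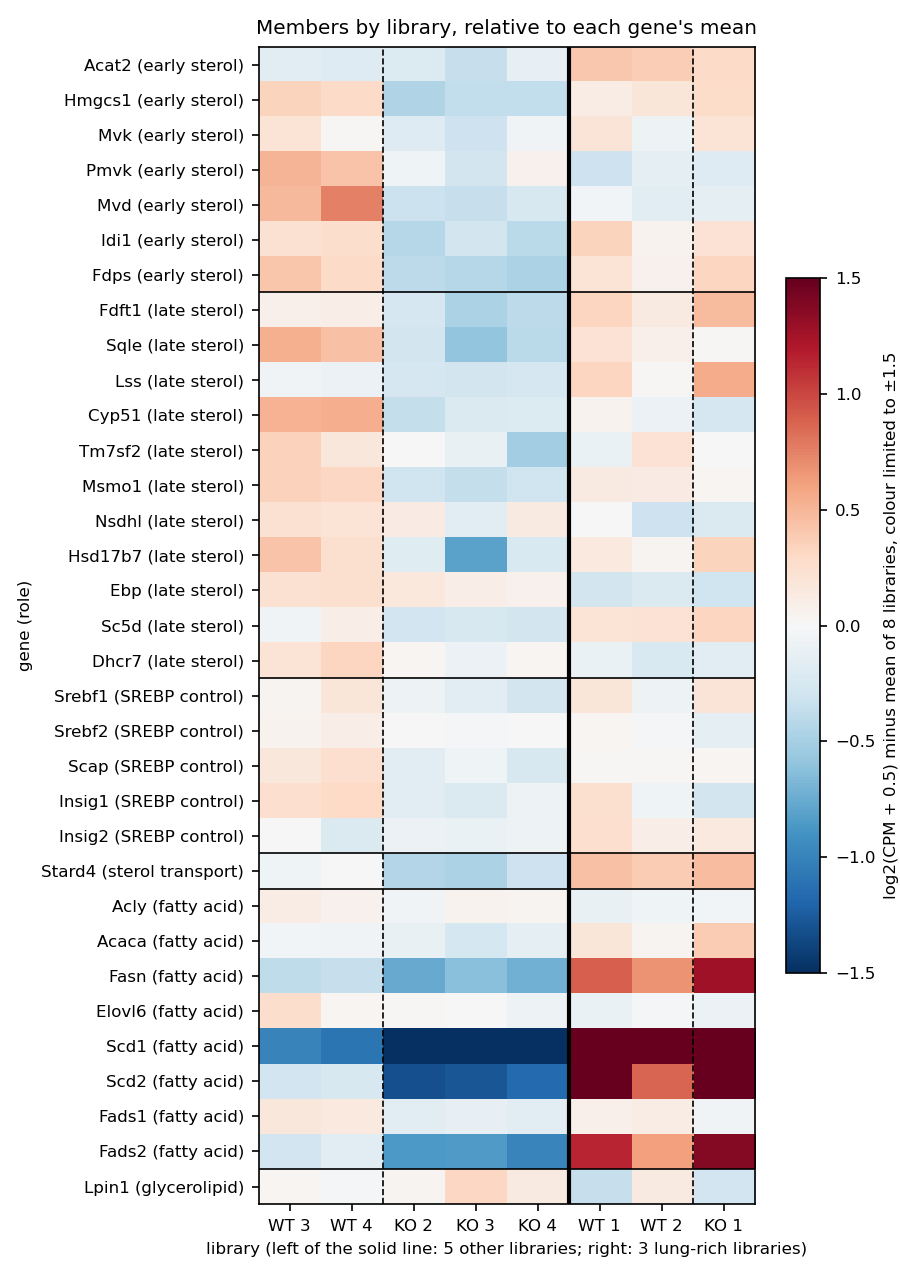
The heat map shows each of the 33 members (rows, grouped by role) in the 8 libraries (columns, the 5 other libraries left of the solid line and the 3 lung-rich ones right of it) as log2(CPM + 0.5) minus the gene's mean over the 8 libraries, on a colour scale that is cut off at both ends. Left of the line all 18 sterol enzymes but Acat2 are higher in WT 3 and WT 4 than in KO 2 to KO 4, and Scd1, Scd2, Fasn and Fads2 are highest right of it.

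Cyp51 (GRCm38 chromosome 5, 4081145 to 4104746, minus strand), which removes the first methyl group from lanosterol, was at 50.6, 45.9, 70.6 and 71.8 CPM across WT 1 to 4. The KO libraries 1 to 4 measured 40.9, 38.1, 41.9 and 42.3 CPM. The KO libraries were within a few CPM of each other, and the lung-rich WT libraries lay between them and WT 3 and WT 4. The fold change on the log2 scale was -0.55 (SE 0.16, edgeR adjusted p = 0.224). Once the set entered the fit it was -0.60 (SE 0.11, edgeR adjusted p = 0.00974).

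Sqle (chromosome 15, 59315077 to 59331192, plus strand), which adds the oxygen that lets squalene close into rings, was at 19.2, 17.3, 24.1 and 22.4 CPM in WT and at 16.6, 13.5, 10.8 and 12.3 CPM in KO. Msmo1 (chromosome 8, 64718139 to 64733792, minus strand), which acts after Cyp51, was at 31.9, 31.4, 36.9 and 36.0 CPM in WT and at 29.5, 23.5, 22.4 and 23.5 CPM in KO. In both genes KO 1 came close to the lung-rich WT libraries, and the other libraries were further apart. With the set term the log2 fold change was -0.64 for Sqle (SE 0.16, edgeR adjusted p = 0.0293) and -0.45 for Msmo1 (SE 0.10, edgeR adjusted p = 0.0203).

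Insig1 (chromosome 5, 28071363 to 28078662, plus strand), itself an SREBP target, was at 171, 137, 171 and 178 CPM in WT and at 118, 128, 124 and 136 CPM in KO. WT 2 and KO 4 nearly touched, and KO 1 was the lowest library. Its log2 fold change with the set term was -0.41 (SE 0.07, edgeR adjusted p = 0.00812). Fads1 (chromosome 19, 10182888 to 10196877, plus strand), which desaturates polyunsaturated fatty acids, was at 137, 141, 147 and 145 CPM in WT and at 126, 116, 119 and 116 CPM in KO. Relative to the mean it had the tightest groups of the 5, at 143 ± 4.13 CPM in WT and 119 ± 4.82 CPM in KO (SD, n = 4 each). With the set term it fell by 0.26 on the log2 scale (SE 0.05, edgeR adjusted p = 0.0104).

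**Figure D2:**
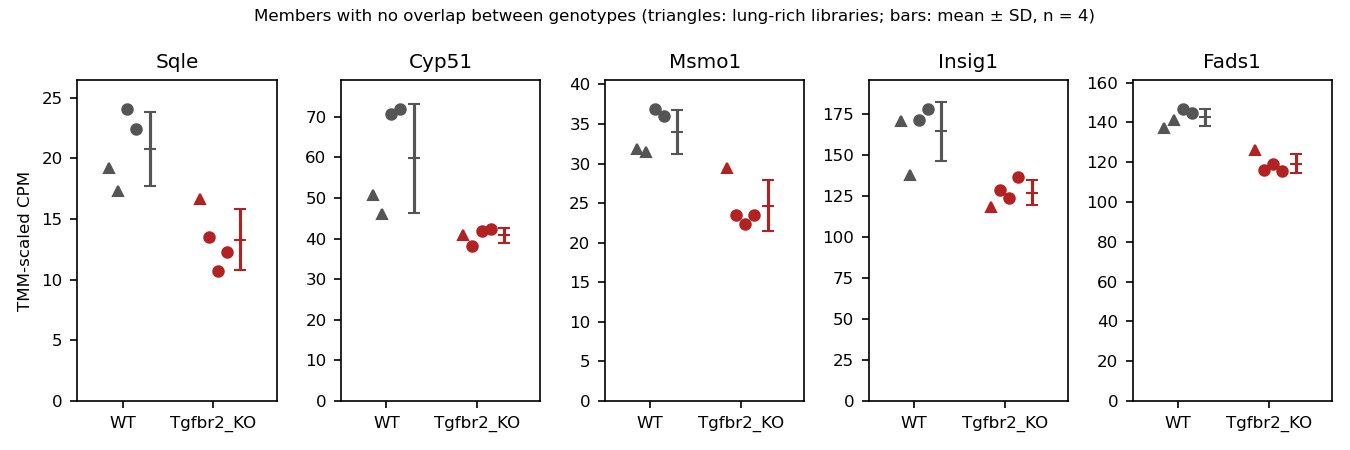
The panels plot the TMM-scaled CPM of Sqle, Cyp51, Msmo1, Insig1 and Fads1 in each WT (grey) and Tgfbr2_KO (red) library on axes that start at 0, with triangles for the lung-rich libraries and bars for mean ± SD (n = 4). In each panel the highest KO library lies below the lowest WT library, and the gap is narrowest for Insig1 and Sqle relative to the spread of the groups.

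With the set term, 6 members fell and 0 rose in Tgfbr2_KO, beside 7.89% of all tested genes called lower and 8.59% called higher. The sixth was Mvd, mevalonate diphosphate decarboxylase, at 8.75, 8.04, 12.9 and 15.6 CPM in WT and at 8.17, 7.12, 7.03 and 7.59 CPM in KO (log2 fold change -0.64, SE 0.18, edgeR adjusted p = 0.045). Only WT 3 and WT 4 stood above the other libraries, and WT 2 lay below KO 1. Cyp51, Insig1 and Fads1 passed in this fit with any 1 library left out. With the type 2 marker level as a numeric term in place of the set, 6 members were also called lower, but Mvd did not pass (edgeR adjusted p = 0.0515) and Stard4 did (-0.23, edgeR adjusted p = 0.0499). Of the fits that left out 1 library, Mvd passed only in those without WT 2 or KO 1, Sqle did not pass without WT 3, WT 4, KO 2 or KO 4, and Msmo1 did not pass without WT 3 or WT 4. The count of members called lower was 3 without WT 3 or without WT 4, and 21 without KO 1. Of all tested genes 3.62%, 3.36% and 15.2% were called lower in these fits. Without KO 1 no lung-rich knockout library is left, so the fit compares only KO 2 to 4 with WT 3 and WT 4. The 21 calls and the pass of Mvd without KO 1 are therefore not a separate check of the set-term fit.

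Promoter sequences from RefSeq (GRCm38.p6, from 250 bases before to 50 after the start) were at hand for 26 of the 33 members. Stretches lying before any annotated exon were cut for members with an entry that were lower in every KO library, and for Hmgcs1. Hmgcs1 was added because it held the core of the sterol regulatory element, described next. Printed are the stretches with matches, those of Insig1 and of Hmgcs1, which makes HMG-CoA from acetoacetyl-CoA and is a classical sterol-regulated gene. SREBP binds the sterol regulatory element, usually beside a site for the factor NF-Y. Capitals mark matches on either strand to the element's core TCACNCCAC, to the NF-Y box CCAAT, or to the E-box CACGTG, and none of these matches overlap. The Hmgcs1 stretch is chr13:119690101-119690350 and the Insig1 stretch chr5:28071162-28071362, both on the plus strand and read 5′ to 3′.
Hmgcs1: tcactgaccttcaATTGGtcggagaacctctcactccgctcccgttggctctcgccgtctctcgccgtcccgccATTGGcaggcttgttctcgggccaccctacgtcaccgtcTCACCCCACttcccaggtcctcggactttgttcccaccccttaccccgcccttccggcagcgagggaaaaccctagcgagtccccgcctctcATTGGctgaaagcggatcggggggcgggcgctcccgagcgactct
Insig1: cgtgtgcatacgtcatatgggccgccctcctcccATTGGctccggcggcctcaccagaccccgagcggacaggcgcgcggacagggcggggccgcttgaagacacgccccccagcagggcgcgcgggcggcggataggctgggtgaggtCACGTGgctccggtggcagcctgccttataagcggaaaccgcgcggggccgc
The element core was found in 1 of the 26 members with an entry, Hmgcs1, where its first base is 137 bases before the start, and in 1.44% of the 27025 genes with an entry. The NF-Y box was found in 14 of 15 sterol enzyme genes (93.3%) and in 2 of 5 fatty acid genes, beside 41.1% of all genes with an entry. The E-box was found in 3 of 15 sterol enzyme genes, in 0 of 5 fatty acid genes and in 8.09% of all genes with an entry. The stretches of Cyp51 (201 bases) and Msmo1 (36 bases), cut by the same rule, held 0 matches and are not printed. Both genes had the NF-Y box elsewhere in the window. The matches describe these letters in this window only. No entry was at hand for Fads1, Fdft1, Fdps, Scd1, Scd2, Sqle and Stard4.

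Within the other 5 libraries, where lung epithelial RNA was low, members of both pathways were lower in KO 2 to 4 than in WT 3 and WT 4. Of the 33 members 21 fell (63.6%) and 0 rose, beside 14.9% of all tested genes called lower and 15.8% called higher by the same edgeR test. The median log2 fold change was -0.37 over the members and -0.0047 over all tested genes. Without overlap between the genotypes, 30 members were lower and 1, Lpin1, was higher, where 30.2% and 29% of tested genes did so. Acat2 and Insig2 overlapped.

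In the mevalonate part of the pathway 5 of 7 genes fell in these 5 libraries. Hmgcs1 (chromosome 13, 119690379 to 119708260, plus strand) was at 68.0 and 65.5 CPM in WT 3 and WT 4 and at 39.2, 41.3 and 41.3 CPM in KO 2 to 4. This is a log2 difference of -0.72 (SE 0.05, edgeR adjusted p = 3.63e-06), the smallest adjusted p of any member. In the lung-rich libraries it was at 58.0 and 61.0 CPM in WT 1 and WT 2 and at 65.1 CPM in KO 1, so KO 1 lay above both.

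Mvd fell most in this part, by 0.98 on the log2 scale (SE 0.12, edgeR adjusted p = 1.36e-04). Farnesyl diphosphate synthase (Fdps), which makes the last intermediate shared with prenylation, was at 25.6, 23.1, 29.7 and 27.0 CPM across WT 1 to 4 and at 27.8, 16.6, 16.3 and 15.7 CPM across KO 1 to 4. Its log2 fold change within the 5 libraries was -0.80 (SE 0.08, edgeR adjusted p = 3.39e-05), and KO 1 was on the WT side. The isomerase Idi1 was at 50.6, 41.5, 46.9 and 48.2 CPM in WT and at 46.3, 29.5, 32.9 and 30.1 CPM in KO (-0.63, SE 0.08, edgeR adjusted p = 2.57e-04). Phosphomevalonate kinase (Pmvk) was at 13.8, 15.5, 24.9 and 23.6 CPM in WT and at 15.1, 16.5, 14.2 and 18.2 CPM in KO (-0.57, SE 0.11, edgeR adjusted p = 0.00233). For Pmvk the lung-rich WT libraries were at the KO level, unlike for Idi1. The mevalonate kinase Mvk (-0.31, 95% interval -0.60 to -0.01, edgeR adjusted p = 0.116) and the thiolase Acat2 (-0.04, 95% interval -0.28 to 0.20, edgeR adjusted p = 0.819) did not pass.

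From squalene onward 7 of 11 genes fell. Sqle (-0.92, SE 0.11), Cyp51 (-0.81, SE 0.06) and Msmo1 (-0.66, SE 0.06) had the smallest adjusted p of the 11 (edgeR adjusted p = 8.38e-05, 5.66e-06 and 2.40e-05). Hsd17b7, which reduces the sterol ketone left by demethylation, was at 11.2, 10.4, 13.6 and 12.0 CPM in WT and at 12.8, 8.79, 5.56 and 8.52 CPM in KO (-0.74, SE 0.17, edgeR adjusted p = 0.00864). Squalene synthase (Fdft1), the first enzyme committed to sterols, was at 17.0, 14.8, 14.3 and 14.5 CPM in WT and at 19.0, 11.2, 9.58 and 10.2 CPM in KO (-0.48, SE 0.11, edgeR adjusted p = 0.0062). Hsd17b7 did not pass without WT 3 and Fdft1 did not pass without WT 4 (edgeR adjusted p = 0.0725 and 0.0611). In Hsd17b7 and Fdft1 alike, KO 1 was the highest KO library and above WT 1 and WT 2.

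The sterol desaturase Sc5d was at 34.0, 34.4, 28.6 and 31.8 CPM in WT and at 37.0, 24.2, 24.9 and 24.3 CPM in KO (-0.31, SE 0.07, edgeR adjusted p = 0.00679), and did not pass without WT 4 (-0.22, edgeR adjusted p = 0.137). Dhcr7, the reductase of the last step, fell by 0.29 (SE 0.08, edgeR adjusted p = 0.0181), and did not pass without WT 4 or without KO 3 (edgeR adjusted p = 0.196 and 0.0501). Its call was also lost with DESeq2 (adjusted p = 0.0603) and with WT 3 and WT 4 summed. Lanosterol synthase (Lss) was at 15.3, 12.3, 11.6 and 11.4 CPM in WT and at 18.1, 10.1, 9.94 and 10.1 CPM in KO, and did not pass (-0.20, 95% interval -0.44 to 0.05, edgeR adjusted p = 0.221). Neither did the reductase Tm7sf2 (-0.48, edgeR adjusted p = 0.0885), the decarboxylating dehydrogenase Nsdhl (-0.19, edgeR adjusted p = 0.288) or the isomerase Ebp (-0.12, edgeR adjusted p = 0.135). The 4 that did not pass were thus the ring-closing enzyme and 3 of the later steps, and Sqle, Cyp51, Hsd17b7 and Msmo1 had the 4 most negative values of the 11.

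Among the controlling genes, Insig1, Scap and Srebf1 fell and Srebf2 and Insig2 did not pass in the 5 libraries. Srebf2, the sterol-pathway SREBP, was at 224, 215, 227 and 235 CPM across WT 1 to 4 and at 200.1, 221, 218 and 219 CPM across KO 1 to 4. The genotypes overlapped through KO 2 to 4 and WT 2, and the difference within the 5 libraries was -0.08 (95% interval -0.17 to 0.01, edgeR adjusted p = 0.188). Srebf1 was at 65.4, 54.6, 59.2 and 65.6 CPM in WT and at 66.2, 54.4, 51.1 and 47.6 CPM in KO (-0.29, SE 0.09, edgeR adjusted p = 0.028). It did not pass without WT 4, KO 3 or KO 4 (edgeR adjusted p = 0.229, 0.0582 and 0.0854) or with WT 3 and WT 4 summed. The table does not separate its SREBP-1a and SREBP-1c transcripts.

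Scap, the escort that carries SREBP out of the endoplasmic reticulum, was at 51.3, 51.5, 57.0 and 60.6 CPM in WT and at 51.8, 45.2, 48.5 and 42.9 CPM in KO (-0.37, SE 0.06, edgeR adjusted p = 0.00104). Insig1 fell by 0.43 (SE 0.08, edgeR adjusted p = 0.00486). Insig2, whose product also retains Scap, was at 22.1, 19.8, 18.3 and 15.7 CPM in WT and at 17.1 to 20.4 CPM in KO (0.03, 95% interval -0.18 to 0.24, edgeR adjusted p = 0.844). The Insig genes thus had different values in these libraries, with Insig1 lower in each KO library and Insig2 overlapping. Stard4, which moves cholesterol between membranes, was at 45.1, 43.4, 31.6 and 33.2 CPM in WT and at 45.6, 24.3, 23.6 and 26.6 CPM in KO (-0.39, SE 0.07, edgeR adjusted p = 0.00177).

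Of the fatty acid genes 5 of 8 fell within the 5 libraries, and these were the synthase and the desaturases. Scd1 (chromosome 19, 44394455 to 44407879, minus strand), which makes monounsaturated fatty acids, was at 65.0 and 60.7 CPM in WT 3 and WT 4 and at 30.5, 36.8 and 36.2 CPM in KO 2 to 4 (-0.87, SE 0.13, edgeR adjusted p = 0.00388). Its paralog Scd2 was at 86.6 and 89.0 CPM against 42.1, 42.9 and 46.8 CPM (-1.0, SE 0.20, edgeR adjusted p = 0.0173), and did not pass without WT 4 or without KO 2 (edgeR adjusted p = 0.0576 and 0.0527). The sources used here do not say how reads were split between such similar sequences, so the separate levels of Scd1 and Scd2 are uncertain. Fatty acid synthase (Fasn) was at 79.9 and 82.0 CPM against 61.5, 67.1 and 62.8 CPM (-0.34, SE 0.07, edgeR adjusted p = 0.00354).

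Fads2, which opens the polyunsaturated pathway that Fads1 continues, was at 11.4 and 12.5 CPM against 7.50, 7.54 and 6.76 CPM (-0.72, SE 0.16, edgeR adjusted p = 0.00711), and did not pass without WT 4 (edgeR adjusted p = 0.0803). Fads1 fell by 0.32 (SE 0.04, edgeR adjusted p = 2.00e-04). The enzymes that supply the precursors did not pass, with -0.07 for ATP citrate lyase (Acly, edgeR adjusted p = 0.286) and -0.12 for acetyl-CoA carboxylase (Acaca, edgeR adjusted p = 0.181). The elongase Elovl6 had -0.16 (edgeR adjusted p = 0.311). Lpin1, which makes diacylglycerol, had 0.17 (edgeR adjusted p = 0.421).

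Markers of other cells also differed between genotypes in these 5 libraries. Of 14 alveolar type 2 markers 5 were called lower and 0 higher, with sums of 608 and 609 CPM in WT 3 and WT 4 and 522 to 576 CPM in KO 2 to 4. Of 8 alveolar type 1 markers 6 were lower, with sums of 188 and 189 CPM in WT and 95.8 to 102 CPM in KO. Of 10 endothelial markers 2 were lower and 0 higher, with all 10 below 0 and sums of 273 CPM in both WT libraries and 202 to 231 CPM in KO. Of 9 tested of 11 alveolar macrophage markers 6 were lower and 2 higher. The 11 summed to 484 and 485 CPM in WT and to 87.8 to 101 CPM in KO. Chil3 made up most of the WT sums (348 and 347 CPM). In KO it was at 15.8 to 17.6 CPM, below Atp6v0d2 (35.3 to 37.9 CPM). Marco, Siglecf, Fabp1, Krt79 and Ear1 reached at most 5.15 CPM in any library. Of 5 tested of 6 neutrophil markers 4 were lower, with sums of 196 and 202 CPM in WT and 137 to 152 CPM in KO. Of 12 cell cycle genes 7 were higher, and of 10 macrophage markers 2 were higher and 3 lower. The part of any of these in the members' differences was not tested. The 6 adipocyte markers summed to at most 0.591 CPM in any library, and Lep was at 0 in all.

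Within the lung-rich libraries, KO 1 alone stood for the knockout, and its spread was assumed to be that of the other libraries. Here Scd1 (log2 fold change 0.77), Fasn (0.48) and Acaca (0.28) rose and Insig1 fell by 0.38 (edgeR adjusted p = 0.0168, 0.00326, 0.0366 and 0.0492). Over all tested genes 11.7% were called higher and 9.51% lower. None of the 18 sterol enzymes passed, 9 lay above 0 and 9 below, and their median log2 fold change was 0.0017. Insig1 was the only member called lower within both sets, where 4.11% of tested genes were, and 0 members were called higher within both, where 3.29% were. KO 1 was above both WT 1 and WT 2 in 16 members (48.5%, beside 46.4% of tested genes) and below both in 8 (24.2%, beside 32.8%). Of the 21 members that fell in the other 5 libraries, 14 lay above 0 in the lung-rich ones. It was below both in 5 of the 21, namely Sqle, Cyp51, Msmo1, Insig1 and Fads1. The count called higher was 7 without WT 1, and Acaca did not pass when WT 2, WT 3, WT 4, KO 2, KO 3 or KO 4 was left out.

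**Figure D3:**
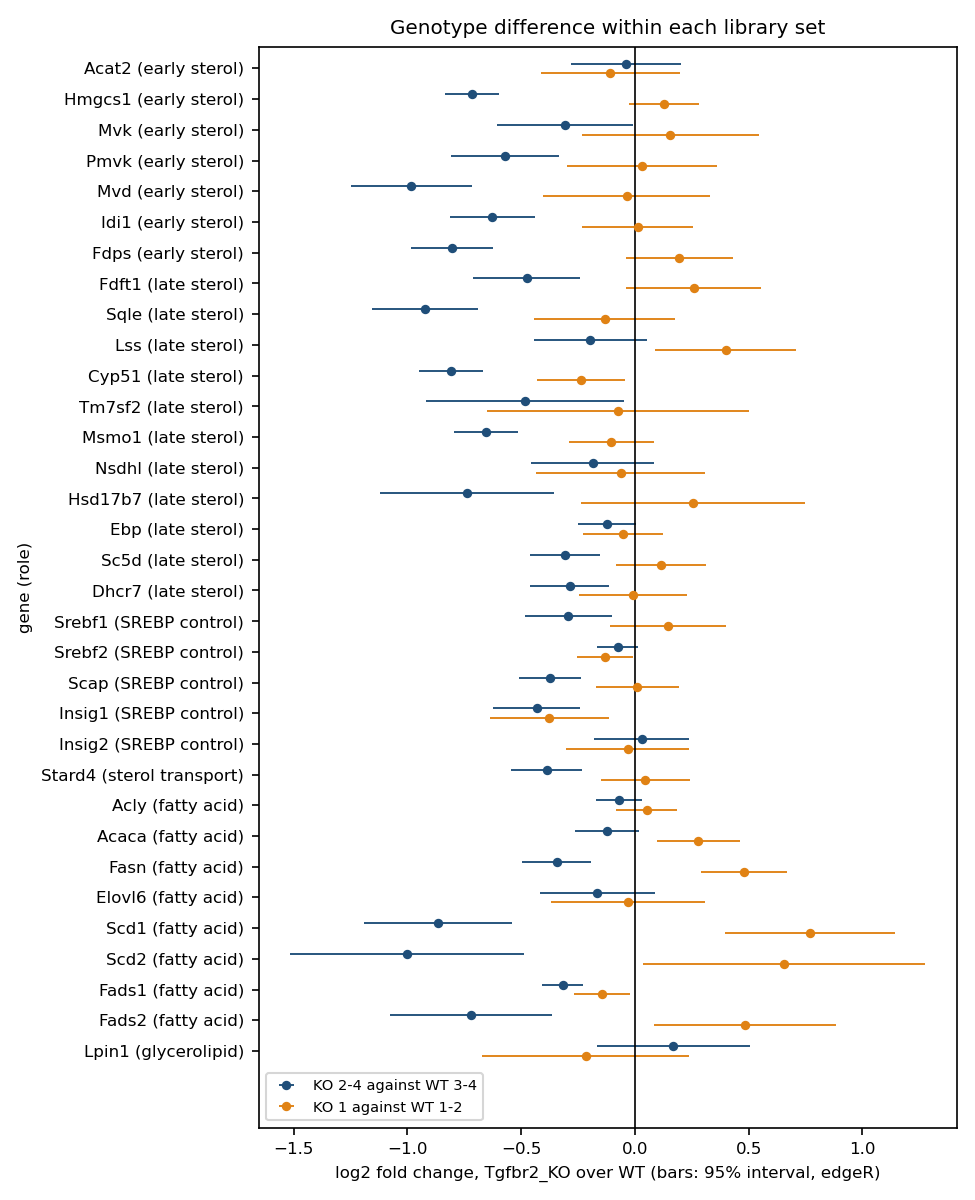
For each member (rows, with its role) the plot gives the log2 fold change, Tgfbr2_KO over WT, within the 5 other libraries (blue, KO 2 to 4 against WT 3 and WT 4) and within the lung-rich ones (orange, KO 1 against WT 1 and WT 2), with bars for the unadjusted 95% edgeR interval. Blue points lie left of 0 in 31 of 33 rows, orange points gather around 0 for most sterol enzymes and lie right of it with their intervals for Scd1, Scd2, Fasn, Fads2, Acaca and Lss, and both colours lie left of 0 with their intervals for Insig1, Cyp51 and Fads1.

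The difference between the sets was itself tested. In 19 of the 33 members (57.6%) the genotype difference was more positive in the lung-rich set by the edgeR interaction test, and in 0 it was more negative, where 8.84% and 10.1% of tested genes were. The 19 comprised 12 of 18 sterol enzymes, 5 of 8 fatty acid genes, Scap and Stard4. The largest interactions were those of Scd2 (1.66, SE 0.32), Scd1 (1.64, SE 0.20) and Fads2 (1.20, SE 0.24). Among sterol enzymes the largest were Fdps (1.00, SE 0.13), Hsd17b7 (0.99, SE 0.28) and Mvd (0.95, SE 0.20), and Hmgcs1 (0.84, SE 0.09, edgeR adjusted p = 1.10e-04) had the smallest adjusted p. Lss, which had passed within neither set, was called here (0.60, SE 0.18, edgeR adjusted p = 0.0418), but not with upper quartile scaling, with DESeq2 or without WT 2, WT 3, WT 4, KO 2, KO 3 or KO 4 (adjusted p from 0.0524 to 0.166). The calls of Hmgcs1, Fdps, Cyp51, Msmo1, Scd1, Fasn and Fads2 held with each of the 7 libraries other than KO 1 left out, and the other 12 were each lost without at least 1 library. Among them, Hsd17b7 did not pass without WT 3, WT 4 or KO 4 (edgeR adjusted p = 0.127, 0.0786 and 0.0519), Mvd without WT 4 (0.0712), or Scd2 without WT 4 or KO 2 (0.0509 and 0.0546). Insig1 (0.05, 95% interval -0.27 to 0.38), Fads1 (0.17, 95% interval 0.02 to 0.33) and Srebf1 (0.44, 95% interval 0.12 to 0.76) did not pass (edgeR adjusted p = 0.833, 0.109 and 0.0593). Without WT 3 the count was 10 and without WT 4 it was 8.

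Beside these values, other cell markers also separated KO 1 from WT 1 and WT 2. Of 14 alveolar type 2 markers 13 were called higher in KO 1, with sums of 3815 and 4244 CPM in WT and 6517 CPM in KO 1. Of 8 alveolar type 1 markers 7 were higher, with sums of 1257 and 1683 CPM in WT and 2372 CPM in KO 1. Of 10 endothelial markers 7 were higher, with sums of 2464 and 3205 CPM in WT and 4808 CPM in KO 1. Of 10 macrophage markers 9 were lower, with sums of 10385 and 10927 CPM in WT and 7046 CPM in KO 1. The part of these in the lung-rich values and in the interactions was not tested.

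Between the sets, with genotype as a term, 11 members were higher in the lung-rich libraries and 5 were lower, beside 30.9% and 27.6% of all tested genes (edgeR). The same 11 (33.3%) were higher in each lung-rich library than in each of the others, as were 28.1% of tested genes, so the share of members was near that of genes at large. The fatty acid genes carried the largest values. In WT 1, WT 2 and KO 1, Scd1 reached 756, 589 and 1148 CPM, against 30.5 to 65.0 CPM in the others (log2 difference 4.18, SE 0.31, edgeR adjusted p = 1.34e-05). Scd2 was at 305, 194 and 392 CPM against 42.1 to 89.0 CPM (2.27, SE 0.31, edgeR adjusted p = 4.37e-04). These genes separated the sets by more than any genotype difference among the members.

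Fads2 was at 31.6, 21.7 and 37.0 CPM in the lung-rich libraries (1.69, SE 0.24, edgeR adjusted p = 4.96e-04), and Fasn was at 194, 166 and 251 CPM (1.52, SE 0.15, edgeR adjusted p = 7.44e-05). In all 4 genes KO 1 was the highest library and WT 1 the next. Acaca was at 58.9, 53.5 and 68.1 CPM against 43.2 to 50.3 CPM (0.34, SE 0.09, edgeR adjusted p = 0.00994). Fads1 (0.01), Elovl6 (-0.15) and Acly (-0.12) did not pass. The enzymes of the fatty acid list thus did not share 1 pattern across the sets.

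Of the sterol genes, Stard4 (0.64), Acat2 (0.57), Lss (0.52), Fdft1 (0.47) and Sc5d (0.36) were higher in the lung-rich set, as was Insig2 (0.28). Acat2 was at 14.4, 14.0 and 13.2 CPM there and at 8.31 to 9.79 CPM in the others, with WT 3 and WT 4 inside the range of KO 2 to 4. Ebp, Pmvk, Dhcr7, Nsdhl and Cyp51 were lower (-0.45, -0.45, -0.32, -0.32 and -0.31). Ebp was at 31.5, 32.7 and 30.9 CPM in the lung-rich libraries and at 40.0 to 45.1 CPM in the others (SE 0.05, edgeR adjusted p = 8.38e-05). Ebp and Dhcr7 were below every other library in each lung-rich one, where 23.1% of tested genes were. The sterol list was thus split, with 4 enzymes higher, 5 lower and 9 not called. Without KO 1, Fdft1, Lss, Sc5d and Acaca did not pass (edgeR adjusted p = 0.323, 0.101, 0.0716 and 0.0735). Fdft1 was also lost without KO 2, KO 3 or KO 4, Insig2 without WT 4, KO 3 or KO 4, Pmvk and Cyp51 without WT 1 or WT 2, and Nsdhl without WT 2.

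Sftpc, the surfactant protein C gene of alveolar type 2 cells, gives a reference for that RNA. In WT 1, WT 2 and KO 1 it reached 1780, 1593 and 2815 CPM, against 67.9 to 103 CPM elsewhere (log2 difference 4.52, SE 0.22). KO 1 was at 1.67 times the mean of WT 1 and WT 2 for Sftpc, and the median of that ratio over the 14 type 2 markers was 1.60. For Scd1 the ratio was 1.71, for Scd2 1.57, for Fasn 1.39 and for Fads2 1.39. Over the 18 sterol enzymes the median ratio was 0.998, with Lss highest at 1.31 and Cyp51 lowest at 0.847. Scd1, Scd2, Fasn and Fads2 thus had the order of the lung-rich libraries that Sftpc had, as did Acaca, Lss, Fdps and Fdft1 among others, with smaller ratios. Within the other 5 libraries the log2 difference of Sftpc was -0.31 (edgeR adjusted p = 0.154). The median over the 14 type 2 markers there was -0.36, with 13 of them below 0.

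**Figure D4:**
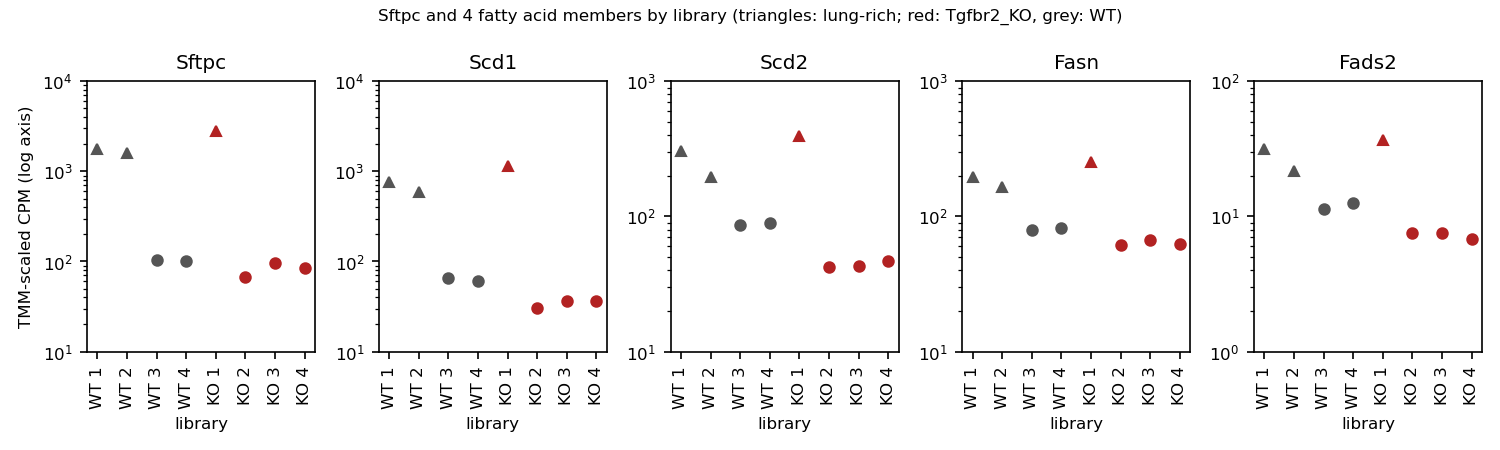
The panels plot the TMM-scaled CPM of Sftpc, Scd1, Scd2, Fasn and Fads2 on log axes for each of the 8 libraries, with triangles for lung-rich libraries, grey for WT and red for Tgfbr2_KO. In each panel KO 1 is highest and WT 1 and WT 2 follow, and among the circles KO 2 to KO 4 lie below WT 3 and WT 4.

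The summed levels show how the pathways differed. The 18 sterol enzymes summed to 436, 411, 500.2 and 498 CPM across WT 1 to 4 and to 431, 345, 335 and 348 CPM across KO 1 to 4. The sums of WT 3 and WT 4 were highest, KO 2 to 4 were lowest, and the lung-rich libraries of either genotype lay between. The 8 fatty acid genes summed to 1667, 1355, 655 and 646 CPM in WT and to 2215, 498, 522 and 519 CPM in KO, and there the lung-rich libraries were far above the rest. Median log2 fold changes were -0.53 for the sterol enzymes and -0.33 for the fatty acid genes within the other 5 libraries, and 0.0017 and 0.38 within the lung-rich ones. With the set term they were -0.35 and -0.17. The lists were not tested against each other.

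Per kilobase of exon, levels in the other 5 libraries spanned from 0.986 CPM per kilobase for Lss to 47.7 for Insig1. Acly (36.8), Srebf2 (31.2) and Fads1 (26.7) followed Insig1, and Tm7sf2 (1.15) was next to Lss at the low end. The length used was the union of all annotated exons of a gene, not that of 1 transcript, and the order depends on it. It was 10787 bases for Lss and 4403 for Tm7sf2, and in CPM Lss was above Tm7sf2 (10.6 against 5.07). The highest levels per length thus belonged to a retention protein, the sterol SREBP, the acetyl-CoA supplier and a desaturase, not to enzymes of the sterol chain, of which Ebp was highest at 18.5.

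Other genes of sterol handling and of fatty acid metabolism were read from lists that do not hold the members. With the set term, 1 of 19 tested of 20 other sterol genes rose and 5 fell. Of all tested genes, 8.59% were called higher and 7.89% lower in that fit. Lbr, whose product has the same sterol reductase activity as Tm7sf2 besides binding lamin, was at 72.5, 69.0, 58.9 and 56.7 CPM in WT and at 94.0, 90.1, 91.5 and 87.8 CPM in KO. No KO library reached down to WT, and the log2 fold change was 0.55 (SE 0.06, edgeR adjusted p = 8.32e-04), and the within-set values were 0.64 (other 5) and 0.41 (lung-rich). The lysosomal cholesterol exporters Npc1 (-0.55, SE 0.07) and Npc2 (-0.39, SE 0.06) fell, and so did the sterol efflux transporter Abcg1 (-0.66, SE 0.14; edgeR adjusted p = 0.00172, 0.00426 and 0.0177). Npc1 and Npc2 passed within each set, Npc1 at -0.57 (other 5) and -0.53 (lung-rich), Npc2 at -0.43 and -0.33.

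Of 26 tested of 27 other fatty acid genes, 2 rose and 3 fell with the set term. These counts were near the shares of all tested genes, 8.59% higher and 7.89% lower. Mid1ip1, which activates acetyl-CoA carboxylase, was at 52.5, 47.1, 30.1 and 30.1 CPM in WT and at 68.4, 37.4, 38.4 and 40.4 CPM in KO (0.40, SE 0.06, edgeR adjusted p = 0.003). Within either set the KO libraries were above the WT ones. The desaturase family member Fads3 had 0.41 (SE 0.10, edgeR adjusted p = 0.0286). The triglyceride synthesis enzyme Dgat1 (-0.48, SE 0.08, edgeR adjusted p = 0.00712) and the acyl-CoA synthetase Acsl1 (-0.48, SE 0.09, edgeR adjusted p = 0.00979) fell.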

How the data were processed

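The authors deposited 1 table of estimated counts per gene, made with salmon and merged over 8 libraries, and the values show no adjustment to a common total. Whole numbers made up 81.8% to 84.8% of each column. Per the submitters' processing notes, the build was GRCm38 and DESeq2 1.40.1 was used. The salmon version, strand setting and annotation are not given in these sources. Each of the 8 columns matched a sample title, and 0 other columns were found.

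After rounding, edgeR 4.0.16 in R 4.3.3 was run on the counts (filterByExpr with minimum count 10 and minimum total 15, TMM, robust quasi-likelihood F-test, Benjamini-Hochberg adjustment over all tested genes, threshold 0.05). The fits held genotype alone, genotype with library set, or 1 mean for each genotype and set, from which the within-set and interaction contrasts came. Fold changes are log2, Tgfbr2_KO minus WT, with standard errors (SE) and 95% intervals. Alternatives were RLE and upper quartile scaling, no filter, DESeq2 1.42.0, each library left out, WT 3 and WT 4 summed, a replicate block, the 5 libraries alone and the type 2 marker level as a term. Gene positions and exon lengths are from GENCODE M21, promoters from RefSeq.

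Same-numbered libraries of the genotypes deviated from their group means with correlations of 0.887, -0.839, 0.782 and 0.825, so the numbers were not taken as pairs. The members and lists were chosen with earlier results of these data known. Per-library values are given for members without overlap between genotypes, called alike in both sets, past the interaction test, or among the 8 largest set differences, and for Srebf1, Srebf2, Scap, Insig1, Insig2, Scd1, Scd2, Fasn, Sqle and Hmgcs1. Up to 4 genes of each other pathway list with the smallest adjusted p with the set term are named. Airway, lymphocyte and fibroblast markers were also read, and 2 of 4 tested airway markers, 1 of 5 tested lymphocyte markers and 1 of 10 fibroblast markers were called higher in KO within the other 5 libraries, and 1 lymphocyte marker, Klrb1c, was called lower.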

Additional observations from a re-analysis of the deposited data

Results flagged for a closer look

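In 12 of the 33 members 1 knockout library lay far from the other 3, by Dixon's criterion at 95%, and in each of them it was KO 1, the lung-rich one. Of the 66 groups of 4 examined, chance alone would give about 1 in 20, and the genes share these libraries, so the 12 are not independent. KO 1 was the highest knockout library for Scd1 (1148 CPM), Scd2 (392 CPM), Fasn (251 CPM), Fads2 (37.0 CPM), Hmgcs1 (65.1 CPM), Fdps (27.8 CPM), Lss (18.1 CPM), Msmo1 (29.5 CPM), Sc5d (37.0 CPM), Stard4 (45.6 CPM) and Insig2 (20.4 CPM). It was the lowest for Srebf2 (200.1 CPM). No WT group met the criterion, which takes no account of the sets. WT 1 and WT 2 are lung-rich and WT 3 and WT 4 are not, whereas KO 1 is the only lung-rich knockout library. The criterion looks for 1 library apart from the rest of its group, so a split of 2 against 2 in WT would not meet it. Of the flagged members, Hmgcs1, Fdps, Msmo1 and Srebf2 did not pass between the sets (edgeR adjusted p = 0.267, 0.322, 0.766 and 0.0841), and the others did. In KO 1 the type 2 markers summed to 6517 CPM, against 522 to 576 CPM in KO 2 to 4, and the part of this in the values was not tested.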

How the results depend on the processing

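Members called lower with genotype alone numbered 0 with edgeR, 5 with DESeq2 and 22 in the 5 other libraries fitted alone (sterol median -0.52). Of all tested genes 0.102%, 1.41% and 18.7% were called lower there. With WT 3 and WT 4 summed, the counts were 3 lower with the set term and 11 past the interaction, and the lung-rich sterol median was -0.054. The shares of all tested genes fell too, to 3.64% lower with the set term and 4.33% higher for the interaction. Upper quartile scaling called 4 lower in the lung-rich set, and upper quartile scaling or no filter called 8 lower between the sets. The shares of all tested genes called lower were 11.9% in the lung-rich set, and 30.5% or 22% between the sets. Leaving out each library gave, for genotype alone, 0 to 8 lower and medians of -0.48 to -0.25 (sterol) and -0.66 to -0.013 (fatty acid). Of all tested genes 0% to 1.89% were called lower in these fits. With the set term it gave 3 to 21 lower and medians of -0.53 to -0.27 and -0.33 to -0.078, beside 3.36% to 15.2% of all tested genes lower. The 21 came without KO 1, where that fit compares only KO 2 to 4 with WT 3 and WT 4. In the other 5 libraries it gave 15 to 21 lower and medians of -0.60 to -0.51 and -0.36 to -0.32, beside 6.87% to 18.3% of all tested genes lower. In the lung-rich set it gave 2 to 7 higher, 1 to 3 lower and medians of -0.054 to 0.075 and 0.22 to 0.47, and for the interaction 8 to 19 higher and 0 to 1 lower. Of all tested genes 6.85% to 15.7% were called higher and 8.86% to 13.3% lower in the lung-rich set. For the interaction these shares were 3.62% to 12.4% and 6.76% to 13%. Between the sets it gave 7 to 12 higher, 3 to 11 lower and medians of -0.21 to 0.19 and 0.65 to 1.04. There 28.4% to 30.3% of all tested genes were called higher and 25.6% to 28.7% lower. Without KO 1 the set differences of Hmgcs1, Sqle and Msmo1 changed sign and passed, with left-out ranges of -0.16 to 0.32, -0.34 to 0.12 and -0.20 to 0.11, and lung-rich and interaction values could not be had. The cause of these changes was not tested. The replicate block on genotype alone called 0 members either way and changed no call, with medians of -0.34 for both lists. Of 2607 member values over all alternatives, 109 lost and 96 gained a call. Counting error weighs most on Tm7sf2, the lowest member at 3.35 to 6.57 CPM, and with 1 lung-rich knockout library the lung-rich values have no replicate of their own.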
